A study of Homo sapiens with 24 samples.

Results

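Mitochondrial ribosomal protein genes were followed through RNA sequencing of HEK293T cells, a line derived from human embryonic kidney, in which O-GlcNAc cycling had been inhibited. Members were the gene groups of the deposited tables whose symbol starts with MRPL or MRPS and a number, 69 of 13236 groups in all, of which 43 carry an MRPL symbol and 26 an MRPS symbol. The value of a gene is the sum of the counts of its exonic bins, and its detained introns were kept apart: 5 of the 4769 detained introns in the tables lie in 4 of these genes. A detained intron is one that stays in polyadenylated RNA that is kept in the nucleus. The groups MRPS16+DNAJC9 and MRPS28+TPD52 each join a member with a neighbouring gene, so their values hold both.

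All groups were the same line with no genetic change stated, in fresh medium for 3 h and then exposed to an inhibitor or to the solvent DMSO. In the OSMI-2 experiment, cells received 10 µM OSMI-2, an inhibitor of O-GlcNAc transferase (OGT), the enzyme that adds O-GlcNAc, or DMSO, each for 2 h or 6 h. In the TMG experiment, cells received 5 µM TMG, an inhibitor of O-GlcNAcase (OGA, gene MGEA5), the enzyme that removes it, or DMSO, again for 2 h or 6 h. Each of the 8 groups had 3 libraries, except OSMI-2 at 6 h, for which 2 libraries were analysed here. The libraries of a group carry the letters a, b and c, and nothing states that they came from separate cultures, so p-values measure the spread between these libraries, which may be technical.

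The mitochondrial ribosome translates the few proteins that mitochondrial DNA encodes, all of them parts of the oxidative phosphorylation machinery. Its ribosomal RNAs come from mitochondrial DNA, whereas its proteins are encoded in the nucleus, made on cytosolic ribosomes and imported, so that the 2 genomes have to be expressed together. Some of the proteins have counterparts in the bacterial ribosome and others are particular to mitochondria. Of the members, 27 are large subunit proteins with a bacterial counterpart, 16 are large subunit proteins particular to mitochondria, 15 are small subunit proteins with a bacterial counterpart and 11 are small subunit proteins particular to mitochondria. These groups follow the symbols, which do not settle where, or whether, each protein lies in the ribosome. MRPS30 and MRPS18A, for example, lie in the large subunit in structures of the human mitochondrial ribosome.

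Promoters are shown for 4 of the members that differed between OSMI-2 and DMSO at 6 h, MRPS30, MRPS35 and MRPL41 (higher) and MRPS23 (lower), because they span the range of base composition among those genes. Each window runs from 250 bases before the transcription start to 50 bases after it, 5′ to 3′ on the gene's strand, from RefSeq on GRCh38.p14. The MRPS30 promoter lies at chr5:44808697-44808996 on the plus strand (GC content 52.7%), that of MRPS35 at chr12:27710582-27710881 on the plus strand (56.0%), that of MRPS23 at chr17:57849995-57850294 on the minus strand (62.3%) and that of MRPL41 at chr9:137551629-137551928 on the plus strand (80.7%). Capitals mark a match, on either strand, to one of 4 motifs of factors known from nuclear genes of mitochondrial proteins.
MRPS30: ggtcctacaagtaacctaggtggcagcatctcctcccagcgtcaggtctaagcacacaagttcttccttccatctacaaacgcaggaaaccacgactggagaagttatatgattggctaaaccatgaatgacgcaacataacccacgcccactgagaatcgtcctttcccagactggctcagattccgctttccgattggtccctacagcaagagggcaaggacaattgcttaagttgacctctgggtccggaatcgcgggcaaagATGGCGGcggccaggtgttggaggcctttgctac
MRPS35: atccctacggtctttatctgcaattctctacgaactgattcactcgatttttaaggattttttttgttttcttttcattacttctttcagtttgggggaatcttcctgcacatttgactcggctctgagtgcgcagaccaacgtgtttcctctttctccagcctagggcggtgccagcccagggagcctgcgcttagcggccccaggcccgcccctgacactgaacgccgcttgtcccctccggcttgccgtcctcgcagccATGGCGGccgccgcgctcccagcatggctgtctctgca
MRPS23: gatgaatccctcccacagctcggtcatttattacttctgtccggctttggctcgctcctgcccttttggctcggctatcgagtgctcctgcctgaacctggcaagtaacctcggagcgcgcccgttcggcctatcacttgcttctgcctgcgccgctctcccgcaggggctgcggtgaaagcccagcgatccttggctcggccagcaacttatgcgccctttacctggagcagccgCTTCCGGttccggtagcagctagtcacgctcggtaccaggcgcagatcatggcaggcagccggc
MRPL41: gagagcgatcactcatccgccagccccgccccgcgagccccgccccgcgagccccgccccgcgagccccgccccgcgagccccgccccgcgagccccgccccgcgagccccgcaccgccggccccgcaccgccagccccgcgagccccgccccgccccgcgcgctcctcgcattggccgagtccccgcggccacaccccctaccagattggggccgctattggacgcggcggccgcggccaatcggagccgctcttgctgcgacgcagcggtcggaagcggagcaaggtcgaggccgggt
The capitals in MRPS30 (from base 267) and MRPS35 (from base 263) are the YY1 motif ATGGCGG. Those in MRPS23 (from base 237) are the ETS motif CCGGAAG on the other strand, and MRPL41 holds none of the 4. Both YY1 matches begin with ATG and lie in the 50 bases after the transcription start. They may be the start of the coding sequence, which was not checked.

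The tables of RefSeq held promoters for 60 of the 69 members. The ETS motif CCGGAAG, bound by the GABP complex among others, was present in 24 of these 60 promoters (40.0%) and in 10.6% of 27305 promoters of the same length. The YY1 motif ATGGCGG was present in 20 (33.3%, against 5.68% of all promoters), the E-box CACGTG in 9 (15%, against 7.28%) and the core of the NRF1 motif in 5 (8.33%, against 6.05%). Both strands were searched, and no motif is contained in another. The median GC content was 59.2% in the members' promoters and 58.0% in all promoters. A match describes the letters of the window only. The window includes 50 bases after the start, where ATGGCGG can be coding sequence, and the 27305 promoters were not limited to genes expressed here.

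Total counts were 39465746 to 100161560 per library, and the members took 0.602% ± 0.025 to 0.715% ± 0.022 of them as group means (± SD) in the OSMI-2 experiment and 0.536% ± 0.007 to 0.541% ± 0.015 in the TMG experiment. The DMSO 6 h libraries of the OSMI-2 experiment stood apart in the share of counts in detained introns, 0.984% ± 0.229 (SD, n = 3), against 0.251% to 0.307% in the other groups of that experiment and 0.416% to 0.624% in the TMG experiment. DMSO 6 h library a of the OSMI-2 experiment stood apart again in how counts depend on GC content. Across the genes of that library, the level rose by 0.39 log2 units per 10 points of GC content, in a fit that also held gene length. This slope was 0.77 to 1.10 in the other libraries of that experiment and -0.56 to -0.27 in the TMG experiment. The 2 experiments therefore differ in GC dependence, and levels are compared between them only as a description. Of 9 markers of HEK293T fixed for the check, all had counts (VIM 610, CDH2 77.5, KRT18 64.5 and KRT8 41.7 CPM, the mean count scaled to library size, down to LHX1 at 0.312), and of 6 markers of other cells PTPRC, PECAM1, ALB and HBB had no row, CD68 was at 1.76 and COL1A1 at 11.5 CPM. In bulk RNA, fewer cells of a kind and less RNA per cell cannot be told apart.

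Members were well expressed for their length. In the 12 DMSO libraries their median level was 51.7 CPM per kilobase of bins, against 7.92 for the 10518 genes with a mean of at least 1 CPM. On that scale the highest were MRPL37 at 355 ± 193 (SD, n = 12), MRPL23 at 245 ± 190, MRPS26 at 178 ± 111, MRPL4 at 175 ± 105 and MRPL55 at 169 ± 131. MRPL37 and MRPL55 are large subunit proteins particular to mitochondria, whereas MRPL23 and MRPL4 have bacterial counterparts. Their ranges overlap, but these span experiments and times that the genes share, and the order within libraries was not tested. The lowest were MRPL19 at 2.57 ± 1.40, the group MRPS28+TPD52 at 2.93 ± 0.87, MRPL34 at 3.10 ± 1.38, MRPS17 at 3.60 ± 0.66 and MRPL47 at 5.82 ± 3.18 CPM per kilobase. These also overlap one another, and the bins of MRPL19 (23673 bases), MRPL47 (6387) and MRPL34 (5399) are long beside the members' median of 1437 bases, which lowers a level per kilobase. MRPS18A, MRPS18B and MRPS18C, 3 homologues of one bacterial protein, had 64.9 ± 37.9, 88.6 ± 41.8 and 60.6 ± 18.2 CPM per kilobase. These SDs also hold the differences between experiments and times that the genes share, and differences within libraries were not tested.

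**Figure D1:**
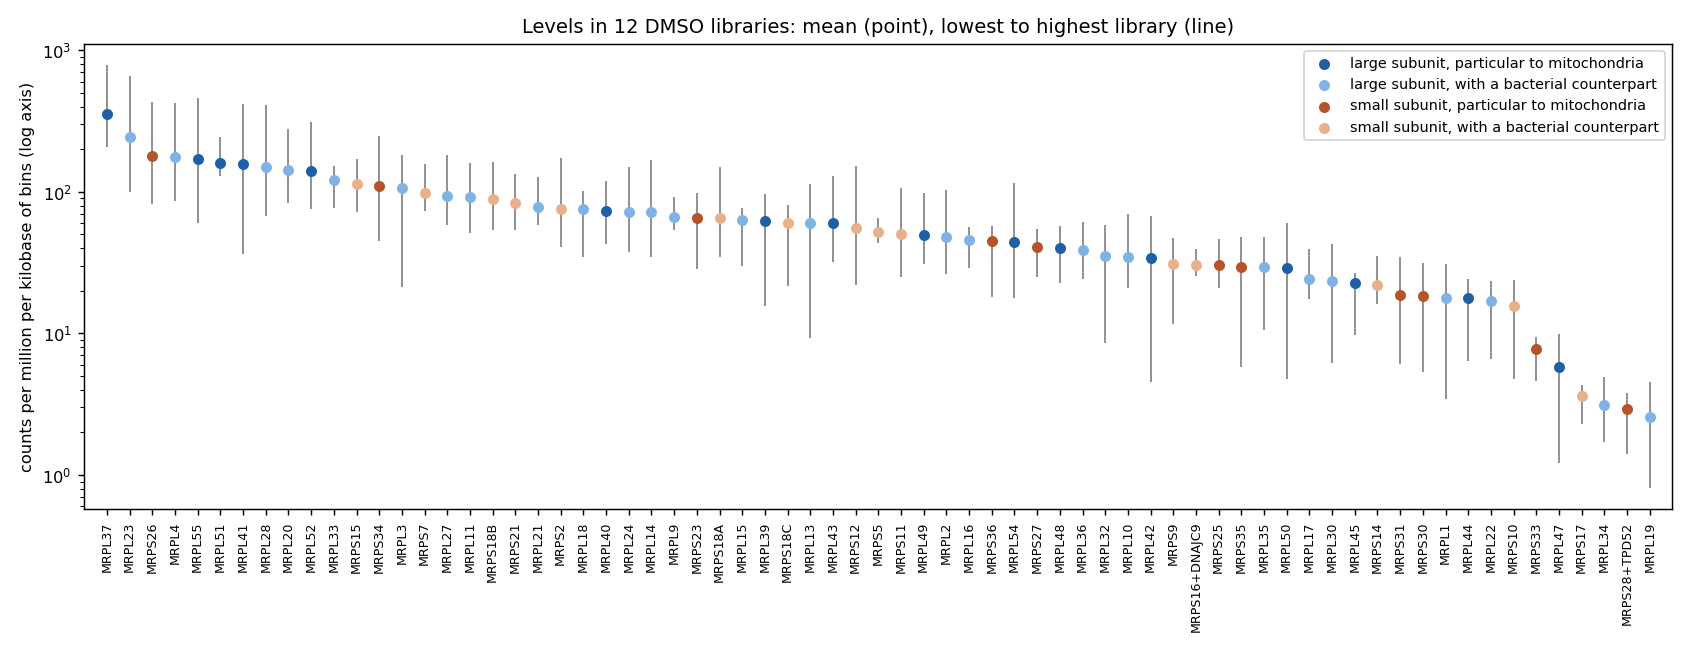
Level of each of the 69 members in the 12 DMSO libraries of both experiments, in CPM per kilobase of bins on a log axis; points are means, lines run from the lowest to the highest library, and colours give subunit and origin. Means run from 2.57 for MRPL19 to 355 for MRPL37, and the lines of neighbouring genes overlap.

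The first comparison asks what 2 h of OGT inhibition did to these transcripts. No member passed the test: 0 of 69 reached an adjusted p of 0.05 (edgeR quasi-likelihood test, Benjamini-Hochberg over all genes tested), beside 0% of 12343 genes, and 0 members and 160 genes had an unadjusted p under 0.05. DESeq2 called 0 members and 1 gene. Log2 fold changes of the members ran from -0.47 to 0.17 with a median of -0.08, against -0.01 for all genes. The lowest was MRPL15, with 98.4, 101 and 45.6 CPM in DMSO libraries a, b and c and 49.7, 86.9 and 39.8 CPM with OSMI-2. Its groups overlap, and library c was low in DMSO as well. No member had all OSMI-2 libraries on one side of all DMSO libraries, which 4.56% of all genes did (2.45% above and 2.11% below). The highest, MRPL52, MRPL49 and MRPS12, reached 0.17, 0.16 and 0.15.

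At 6 h of OSMI-2, 5 members were higher and 2 lower than in DMSO. These 7 of 69 (10.1%) stand beside 4.94% of 12484 genes tested (2.57% higher and 2.37% lower), and the members' median log2 fold change was 0.07, against 0.15 for all genes. All 5 that were higher are proteins particular to mitochondria by their symbol group: MRPS30, MRPS35, MRPS34 and MRPS26 of the small subunit group and MRPL41 of the large subunit. Of the 2 that were lower, MRPS23 is a small subunit protein particular to mitochondria and MRPL15 a large subunit protein with a bacterial counterpart. By symbol group, those called higher were 4 of 11 small subunit and 1 of 16 large subunit proteins particular to mitochondria. They were 0 of 15 small and 0 of 27 large subunit proteins with a bacterial counterpart. Values of proteins with a counterpart reached 0.94 (large) and 0.88 (small) without passing, beside 0.94 for MRPS34 and MRPS26, which passed. A difference between these groups was not tested.

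MRPS30, also known as programmed cell death protein 9, had 8.85, 6.39 and 6.51 CPM in DMSO and 18.4 and 16.5 CPM with OSMI-2, a log2 difference of 1.27 ± 0.35 (SE, edgeR adjusted p = 0.0194). Both OSMI-2 libraries lie above every DMSO library. MRPS35 had 23.9, 13 and 12 CPM in DMSO and 32 and 44 CPM with OSMI-2 (1.22 ± 0.33, edgeR adjusted p = 0.0164). DMSO library a is the highest of its group for both genes, and the groups do not overlap. MRPL41, which has a single listed bin of 121 bases, had 9.53, 23.3 and 20.1 CPM in DMSO and 32.5 and 45.5 CPM with OSMI-2 (1.14 ± 0.33, edgeR adjusted p = 0.0253). MRPS34 had 27.6, 53.9 and 50.8 CPM in DMSO and 77.7 and 91.7 CPM with OSMI-2 (0.94 ± 0.30, edgeR adjusted p = 0.0431). MRPS26 had 49.8, 90.9 and 97.8 CPM in DMSO and 141 and 164 CPM with OSMI-2 (0.94 ± 0.30, edgeR adjusted p = 0.0465). In these 3, DMSO library a is the lowest by far, and the groups again do not overlap.

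Among the members that were lower, MRPS23 had 52.9, 34.1 and 64.1 CPM in DMSO and 19.8 and 17.7 CPM with OSMI-2, a log2 difference of -1.43 ± 0.33 (SE, edgeR adjusted p = 0.00501). MRPL15 had 80.8, 51.2 and 98.5 CPM in DMSO and 33.2 and 30.1 CPM with OSMI-2 (-1.28 ± 0.31, edgeR adjusted p = 0.00816). In both, the OSMI-2 libraries lie close together below a wide DMSO group. MRPS33, another small subunit protein particular to mitochondria, had a value of -0.99 that did not pass (edgeR adjusted p = 0.0664). The value of a gene is the sum of its bins, and the 7 genes that passed were chosen for that sum. The direction of their bins is therefore largely fixed, and MRPL41 and MRPS34 have 1 bin each. In each of the 7 genes, every bin with a mean of at least 10 counts moved in the direction of the gene. For MRPS30 these were 5 of 5 bins (1.01 to 1.49), for MRPS35 8 of 8 (1.04 to 1.49), for MRPS23 5 of 5 (-1.51 to -1.35) and for MRPL15 6 of 6 (-1.42 to -1.18).

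Without overlap between groups, 23 members were above and 10 below DMSO at 6 h of OSMI-2 (47.8% of members), beside 32.2% of all genes above and 14.9% below (47.2% in all). The count of 7 rests on single libraries: it became 0 without OSMI-2 library a, without OSMI-2 library b or without DMSO library c, 3 without DMSO library b and 31 (26 higher, 5 lower) without DMSO library a, and with 1 OSMI-2 library left that library is assumed to vary like the other group. Over all genes, 5268 were called without DMSO library a (4247 higher, 1021 lower), 322 without DMSO library b and 129 without DMSO library c. The split of calls moved with scaling: with normalization factors from genes alone, which moved the median of all genes from 0.15 to -0.09, 0 members were called higher and 3 lower (MRPS23, MRPL15 and MRPS33), and over all genes 33 were higher and 481 lower in place of 321 and 296. The values of the 5 members stayed above 0 there, at 1.03 for MRPS30, 0.97 for MRPS35, 0.91 for MRPL41 and 0.71 each for MRPS34 and MRPS26 (edgeR adjusted p from 0.0784 to 0.158). MRPS26 did not pass without the filter on low counts either (0.94, edgeR adjusted p = 0.0512). The share of counts in detained introns differed between the same groups, 0.984% ± 0.229 (SD, n = 3) in DMSO and 0.307% ± 0.030 (SD, n = 2) with OSMI-2, and its part in these values was not tested. Of the 9 markers of HEK293T, 1 was higher in the same comparison (NEFM, 1.53) and their median was 0.71.

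**Figure D2:**
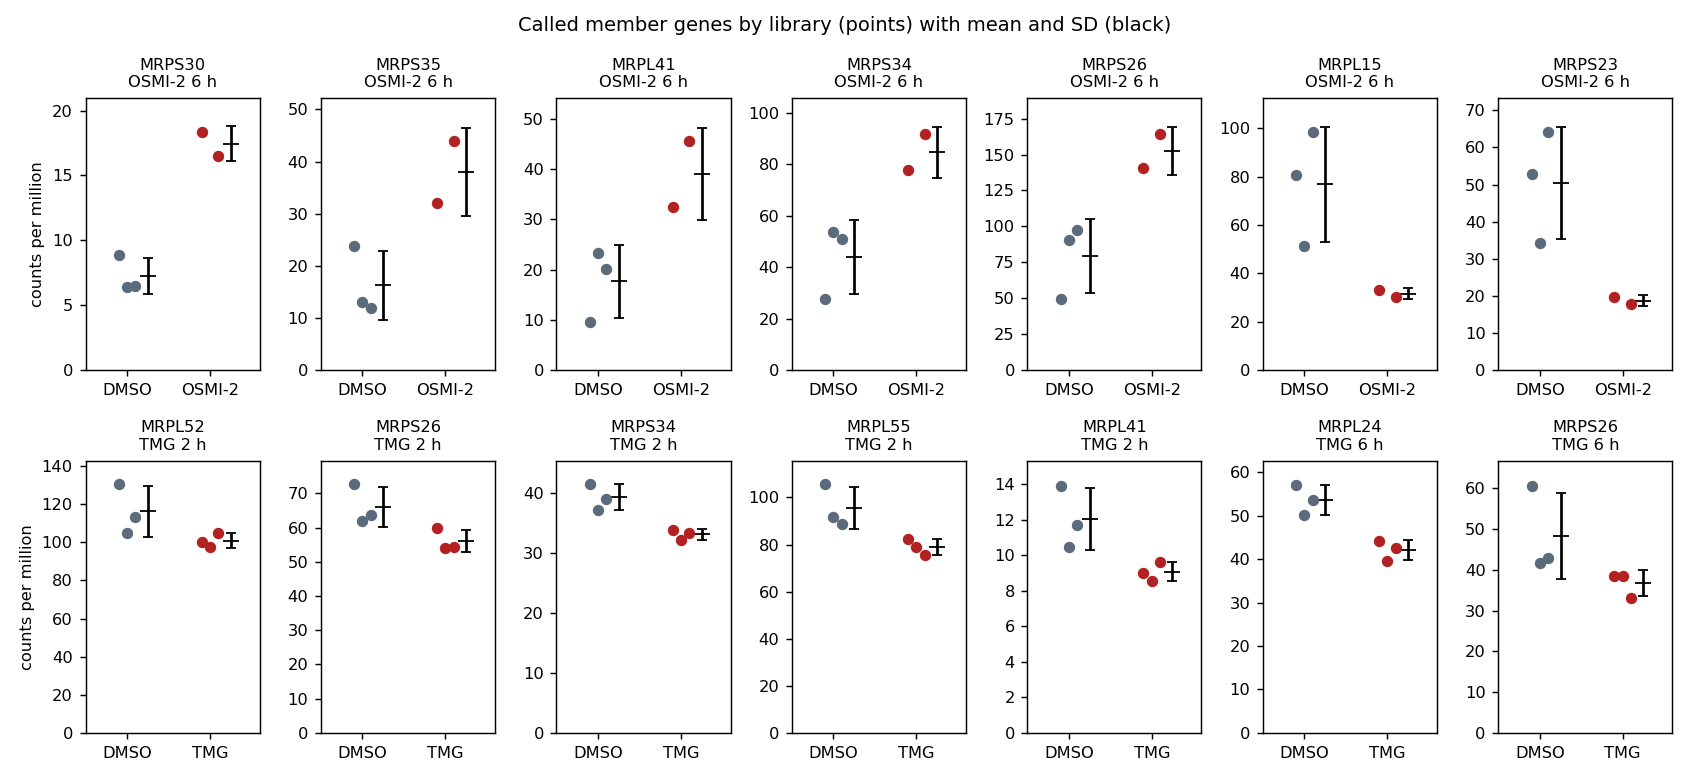
CPM (y axes from 0) of every member that passed the threshold with a drug, by library (points), with the mean and SD of each group in black; the upper row is OSMI-2 at 6 h and the lower row TMG at 2 h and 6 h. With OSMI-2, MRPS30 rises from 6.39 to 8.85 CPM to 16.5 to 18.4 CPM and MRPL15 falls from 51.2 to 98.5 CPM to 30.1 to 33.2 CPM, and with factors from genes alone the log2 differences are 1.03 for MRPS30, which does not pass, and -1.51 for MRPL15, which does; with TMG the differences are small and MRPL52 overlaps.

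The effects of OSMI-2 at 6 h and at 2 h were compared directly in an interaction model. No member passed (0 of 69, beside 0.111% of 12627 genes, 0.0158% higher and 0.095% lower), 9 members and 1847 genes had an unadjusted p under 0.05, and DESeq2 called 2 members. MRPL41 had the highest difference of effects at 1.47 ± 0.43 (SE, edgeR adjusted p = 0.163), followed by MRPS30 at 1.26 ± 0.33 (0.119) and MRPS35 at 1.13 ± 0.35 (0.185). MRPS23 had the lowest at -1.21 ± 0.46 (edgeR adjusted p = 0.251). Without DMSO 6 h library a, 8 members passed, all higher, and the count over all genes in that setting is not given here. The effect at 6 h is therefore not shown to differ from that at 2 h.

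The TMG comparisons ask what inhibiting OGA did to the same transcripts. At 2 h, 5 of 69 members were lower and 0 higher, beside 6.67% and 1.25% of 12361 genes (7.91% in either direction), and the members' median log2 fold change was -0.05, against -0.03 for all genes. All 5 are proteins particular to mitochondria by their symbol group, and 3 of them, MRPL41, MRPS34 and MRPS26, were higher with OSMI-2 at 6 h, an overlap that was not tested. Values of proteins with a bacterial counterpart went down to -0.21 (small subunit) and -0.18 (large subunit) without passing, beside -0.20 for MRPL52, which passed. MRPL41 had 13.9, 10.5 and 11.7 CPM in DMSO and 9.02, 8.56 and 9.64 CPM with TMG, a log2 difference of -0.40 ± 0.09 (SE, edgeR adjusted p = 0.00832). MRPL55 had 106, 91.7 and 88.9 CPM in DMSO and 82.5, 78.9 and 75.5 CPM with TMG (-0.27 ± 0.06, edgeR adjusted p = 0.00553). Their groups do not overlap, though in both DMSO library a is the highest.

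MRPS34, whose protein is known to be needed for a stable small subunit, had 41.6, 37.3 and 39 CPM in DMSO and 33.9, 32.1 and 33.4 CPM with TMG for 2 h (-0.24 ± 0.06, edgeR adjusted p = 0.0131). MRPS26 had 72.6, 61.9 and 63.6 CPM in DMSO and 59.8, 54.1 and 54.2 CPM with TMG (-0.24 ± 0.06, edgeR adjusted p = 0.0168). MRPL52 had 131, 105 and 113 CPM in DMSO and 100, 97.3 and 105 CPM with TMG, and here the groups overlap (-0.20 ± 0.06, edgeR adjusted p = 0.0398). Without overlap, 2 members were above and 10 below DMSO, beside 8.13% and 18.8% of all genes. The count became 3 without DMSO library a, 9 without DMSO library b, 8 without DMSO library c, and 1 without TMG library b or without TMG library c. It became 0 when each library's trend on GC content and length was removed, with values of -0.18 for MRPL41, -0.12 for MRPL55, -0.07 each for MRPS34 and MRPS26 and -0.10 for MRPL52, and 0 when all 23 libraries shared 1 fit. Of the 9 markers of HEK293T, 2 were lower in the same comparison (KRT8, -0.31, and CDH2, -0.17), and 3 at 6 h of TMG (KRT18, INA and VIM, -0.37, -0.37 and -0.22), and their part was not tested.

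At 6 h of TMG, 2 of 69 members were lower and 0 higher, beside 4.84% and 1.19% of 12103 genes (6.03% in either direction). MRPL24, a large subunit protein with a bacterial counterpart, had 57.2, 50.1 and 53.6 CPM in DMSO and 44.2, 39.6 and 42.6 CPM with TMG, a log2 difference of -0.35 ± 0.07 (SE, edgeR adjusted p = 0.0114). All 6 of its bins, whose sum is the value of the gene, were lower (-0.39 to -0.33), and its call was lost without TMG library b (-0.31). MRPS26 had 60.5, 41.8 and 42.9 CPM in DMSO and 38.5, 38.6 and 33.1 CPM with TMG (-0.40 ± 0.11, edgeR adjusted p = 0.0434). Its groups are apart by a small gap, and DMSO library a is far above the others: without it the value was -0.20 (edgeR adjusted p = 0.0502). The call of MRPS26 held without DMSO library b but not without any other single library, nor with DESeq2 (adjusted p = 0.207).

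MRPL41 had the lowest value at 6 h of TMG, -0.67 ± 0.20, but did not pass (edgeR adjusted p = 0.0577): its DMSO libraries had 9.11, 5.21 and 4.61 CPM and its TMG libraries 3.63, 4.84 and 3.52 CPM, which overlap. Without overlap, 4 members were above and 9 below DMSO, beside 10.1% and 17.6% of all genes. Those above were MRPL42, MRPL48, MRPS5 and MRPS18C, named here after their values were seen, with log2 differences of 0.11, 0.11, 0.11 and 0.13 that did not pass the test. The count of 2 became 1 without DMSO library c, TMG library a or TMG library c, and 0 without TMG library b or with all libraries in 1 fit. With the GC and length trend removed it was 12 (8 higher, 4 lower), and the count over all genes in that setting is not given here. In the interaction model, 0 of 69 members differed between 6 h and 2 h of TMG, beside 0.0242% of 12399 genes (0.0161% higher and 0.00807% lower), and 2 members and 1034 genes had an unadjusted p under 0.05 (DESeq2 called 0 members and 18 genes).

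**Figure D3:**
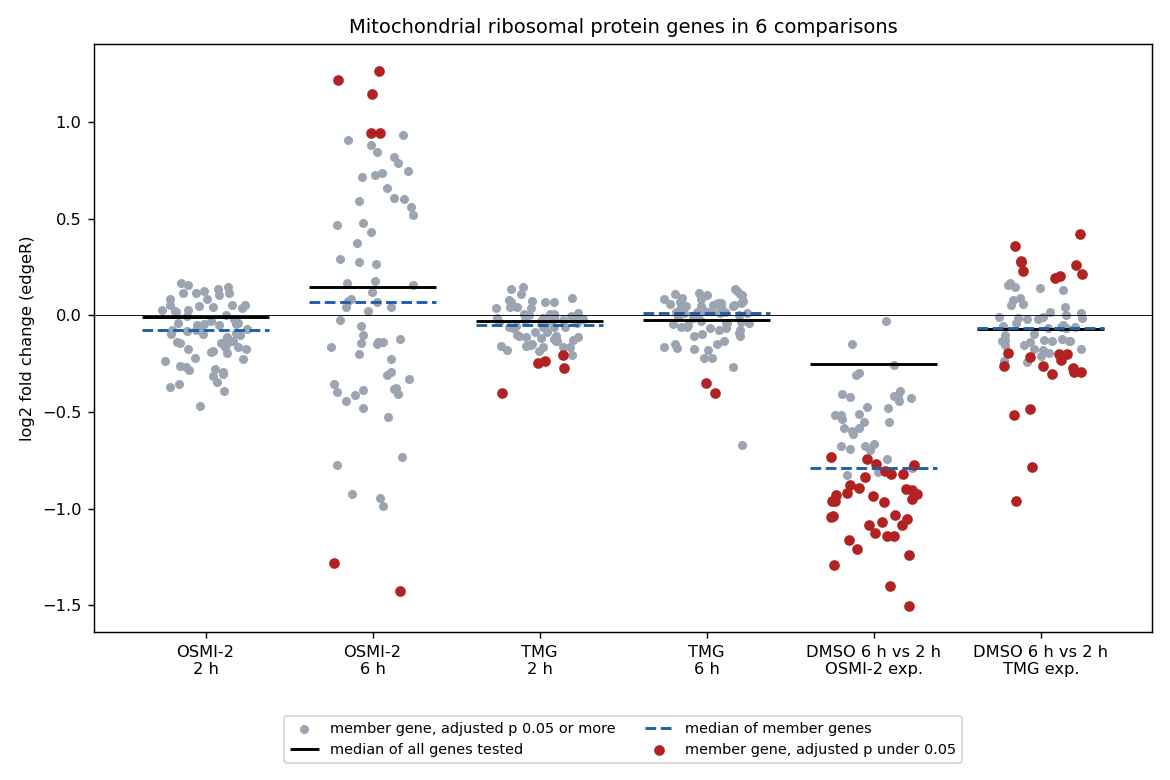
Log2 fold change (edgeR) of each of the 69 members in the 4 drug comparisons and in DMSO at 6 h against 2 h; red points passed an adjusted p of 0.05, the dashed line is the members' median and the solid line that of all genes tested. In DMSO of the OSMI-2 experiment every member lies below 0 with a median of -0.79 against -0.25 for all genes, although 3 members lie above 0 with factors from genes alone; with OSMI-2 at 6 h the medians are 0.07 and 0.15.

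The DMSO libraries also allow 6 h to be set against 2 h without a drug, a comparison of culture time in which time and the handling of the groups cannot be told apart. In the OSMI-2 experiment, 36 of 69 members (52.2%) were lower at 6 h than at 2 h and 0 higher, beside 14% and 4.59% of 12343 genes (18.5% in either direction). All 69 log2 differences were below 0, with a median of -0.79 against -0.25 for all genes. With factors from genes alone, which moved the median of all genes to 0.04, 66 of 69 stayed below 0 and 8 passed, all lower (and over all genes 836 were higher and 293 lower, in place of 567 and 1722). All libraries of 6 h lay below all libraries of 2 h in 44 members, and above in 0, beside 29.2% and 10.5% of all genes (39.7% in all). These DMSO 6 h libraries are the controls of OSMI-2 at 6 h, so the 2 comparisons share them. Of the 9 markers of HEK293T, 6 were lower as well, among them VIM (-1.20) and NEFM (-1.47), with a median of -0.84, and their part was not tested.

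The fall reached all 4 groups of members: 12 of 27 large subunit proteins with a bacterial counterpart (median -0.77), 11 of 16 particular to mitochondria (-0.90), 8 of 15 small subunit proteins with a counterpart (-0.73) and 5 of 11 particular to mitochondria (-0.62). MRPS35 fell most, from 43.7, 42.1 and 40.4 CPM at 2 h to 21.5, 12 and 11.1 CPM at 6 h (-1.50 ± 0.28, edgeR adjusted p = 0.000717). MRPL41 went from 47.0, 34.5 and 46.8 CPM to 8.58, 21.5 and 18.5 CPM (-1.40 ± 0.29, edgeR adjusted p = 0.00187). Both genes are also among the 5 that were higher with OSMI-2 against the same DMSO 6 h libraries. MRPL54, a large subunit protein particular to mitochondria, went from 92.2, 66.0 and 98.4 CPM to 23.2, 40.0 and 41.5 CPM (-1.29 ± 0.27, edgeR adjusted p = 0.00179). MRPL13, whose bacterial counterpart is an early binder in large subunit assembly, went from 41.5, 32.1 and 20.5 CPM to 21.1, 9.06 and 9.67 CPM, with groups that overlap (-1.24 ± 0.31, edgeR adjusted p = 0.00741).

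Among the other members, MRPS30 (-1.21), MRPL28 (-1.16), MRPS10 (-1.14), MRPS26 (-1.14), MRPL22 (-1.13), MRPL23 (-1.08), MRPS12 (-1.08) and MRPS34 (-1.07) passed with edgeR adjusted p-values of 0.00962 or less. With factors from genes alone MRPL13, MRPS30, MRPS10, MRPL23, MRPS12 and MRPS34 did not pass (-0.92, -0.90, -0.84, -0.81, -0.81 and -0.79). Without DMSO 2 h library a, MRPL13 (-0.93), MRPS30 (-0.995), MRPS10 (-0.98), MRPL22 (-0.97), MRPL23 (-1.005) and MRPS34 (-0.98) did not pass, nor did MRPL28 (-0.96), MRPL23 (-0.91) and MRPS12 (-0.87) without library c. MRPS35, MRPL41, MRPL54 and MRPS26 kept their call in all 10 alternatives run. All 3 MRPS18 homologues were lower too, MRPS18A at -0.84, MRPS18B at -0.96 and MRPS18C at -1.03 (edgeR adjusted p = 0.0264, 0.0125 and 0.0094). None of the 3 passed with factors from genes alone (-0.56, -0.69 and -0.74, edgeR adjusted p = 0.143, 0.0662 and 0.103), without DMSO 2 h library a (-0.80, -0.91 and -0.85) or without library b (-0.89, -0.91 and -0.90), nor did MRPS18A without DMSO 2 h library c (-0.67) or MRPS18C without DMSO 6 h library b (-0.80). At the other end, MRPL34 was at -0.03, MRPS23 at -0.15 and MRPS33 at -0.26, and these were the 3 members above 0 with factors from genes alone. The count of 36 became 6, 19 and 18 without DMSO 2 h library a, b or c, 46 and 21 without DMSO 6 h library a or b, and 27 without library c.

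The other DMSO series gave another picture. In the TMG experiment, 9 of 69 members were higher and 15 lower at 6 h than at 2 h, beside 16.3% and 29.6% of 12294 genes (45.9% in either direction), and the members' median of -0.06 was close to that of all genes (-0.07). MRPL41 was the lowest member, going from 14, 10.5 and 11.8 CPM to 8.95, 5.10 and 4.54 CPM (-0.96 ± 0.16, edgeR adjusted p = 4.81e-05). MRPS34 went from 41.9, 37.5 and 39.3 CPM to 29.6, 19.3 and 19.9 CPM (-0.78 ± 0.11, edgeR adjusted p = 5.57e-06). In both, 6 h library a is the closest to the libraries of 2 h, yet the groups do not overlap. MRPL54 (-0.52), MRPS26 (-0.48), MRPL21 (-0.30) and MRPL24 (-0.29) were lower as well. With the GC and length trend removed these 4 had -0.12, -0.07, -0.11 and -0.09 and did not pass (edgeR adjusted p = 0.159, 0.289, 0.068 and 0.118), and MRPL41 and MRPS34 passed with -0.33 and -0.35.

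Those that were higher in the TMG experiment at 6 h of DMSO changed less. MRPL50, a large subunit protein particular to mitochondria, went from 6.39, 5.85 and 5.81 CPM to 7.78, 7.94 and 8.49 CPM (0.42 ± 0.11, edgeR adjusted p = 0.00271). MRPS31 went from 36.1, 32.5 and 36.8 CPM to 43.0, 43.7 and 48.3 CPM (0.36 ± 0.08, edgeR adjusted p = 0.00082). MRPL30, MRPS27, MRPL35 and MRPL13 followed with 0.28, 0.28, 0.26 and 0.23, and in each of these 6 genes every library of 6 h lay above every library of 2 h. Without DMSO 2 h library b MRPL35 (0.22) and MRPL13 (0.20) did not pass, nor did MRPL35 without library c (0.23). Over the family, 10 members lay above and 15 below without overlap, beside 20.2% and 33.2% of all genes (53.4% in all). The split moved with scaling: with factors from genes alone 15 members were higher and 8 lower, and with the GC and length trend removed 21 were higher and 8 lower. In the same comparison 5 of the 9 markers of HEK293T were lower (KRT8 lowest, -1.47). The count of 24 became 37 without DMSO 6 h library a and 14 without DMSO 6 h library c, and 16 without DMSO 2 h library a.

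The change over time in DMSO differed between the experiments by a direct test. In the interaction of time and experiment, 28 of 69 members passed, all with the lower value in the OSMI-2 experiment, beside 9.61% of 12577 genes in that direction and 3.58% in the other (13.2% in either). MRPS35 differed by 1.64 ± 0.30 (SE, edgeR adjusted p = 0.00333), with log2 differences over time of -1.50 and -0.02 in the 2 experiments. MRPL13 differed by 1.61 ± 0.38 (edgeR adjusted p = 0.0152), with -1.24 and 0.23, and did not pass with factors from genes alone (1.41, edgeR adjusted p = 0.0511) or without DMSO 2 h library a of the OSMI-2 experiment (1.38, edgeR adjusted p = 0.0551). MRPS30 differed by 1.53 ± 0.25 (edgeR adjusted p = 0.00224), with -1.21 and 0.17. All 3 fell in the OSMI-2 experiment, and in the TMG experiment MRPL13 passed the test with a higher value and the other two did not pass. The 2 experiments differ in GC dependence of their libraries (above), and its part in this difference was not tested. The count became 11 with factors from genes alone, 50 with DESeq2, 7 without DMSO 2 h library a and 60 without DMSO 6 h library a of the OSMI-2 experiment. It became 9, 6 and 9 without DMSO 2 h library a, b or c and 12, 14 and 8 without DMSO 6 h library a, b or c of the TMG experiment.

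The 4 groups of the OSMI-2 experiment were then set side by side on 1 scale for all 23 libraries, as a description. For MRPS30, DMSO 2 h, OSMI-2 2 h, DMSO 6 h and OSMI-2 6 h had means of 15.4, 15.9, 6.49 and 17.9 CPM, so the DMSO 6 h group is the low one. MRPS35 had 42.6, 46.3, 14.6 and 39.1 CPM, MRPL41 43.5, 35.4, 15.8 and 40.2 CPM, MRPS34 86.4, 80.4, 39.5 and 87.1 CPM, and MRPS26 164, 167, 71.3 and 157 CPM. In all 5 genes that were higher with OSMI-2 at 6 h, the OSMI-2 6 h mean lies near the 2 h means and the DMSO 6 h mean below the other 3. These 5 were chosen for OSMI-2 above DMSO at 6 h, which fixes that part of the order. Some members that were not called had the same order, such as MRPL37 (812, 878, 425 and 770 CPM) and MRPL4 (554, 632, 280 and 577 CPM). Others did not, such as MRPL51 (160, 151, 109 and 95.9 CPM). The 2 genes that were lower, chosen likewise, had OSMI-2 6 h as the low group: MRPS23 had 51.1, 44.8, 45.2 and 19.3 CPM and MRPL15 97.8, 74.9, 68.9 and 32.5 CPM.

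OSMI-2 libraries of 6 h were then set against those of 2 h, and TMG libraries likewise, 2 comparisons added after the values above were seen. With OSMI-2, 0 of 69 members passed, beside 0% of 12492 genes, while 48 members and 3621 genes had an unadjusted p under 0.05 and DESeq2 called 34 members and 2019 genes. Of the members, 65 had values below 0, with a median of -0.54 against -0.05 for all genes, and in 56 all libraries of 6 h lay below those of 2 h and in 0 above, beside 27% and 23.2% of all genes. MRPS18C had the lowest value, with 40.5, 61.8 and 30.4 CPM at 2 h and 17.9 and 14.3 CPM at 6 h (-1.46 ± 0.30, edgeR adjusted p = 0.079). MRPL13, MRPS23 and MRPL15 had -1.32, -1.30 and -1.28, while MRPS30, MRPS34 and MRPL41 had 0.12, 0.08 and 0.15. The count of 0 became 8 without OSMI-2 2 h library b and 26 without OSMI-2 2 h library c.

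With TMG, 33 of 69 members passed at 6 h against 2 h, 15 higher and 18 lower, beside 23.2% and 35.3% of 12258 genes (58.5% in either direction). MRPL41 went from 9.09, 8.70 and 9.82 CPM to 3.62, 4.82 and 3.52 CPM (-1.21 ± 0.11, edgeR adjusted p = 9.55e-11), and MRPS34, MRPS26 and MRPL24 had -0.80, -0.63 and -0.48. The highest were MRPL2 and MRPL35 at 0.31 each and MRPS27 at 0.30. MRPL41, MRPS34, MRPS26 and MRPL24 passed with lower values at 6 h both in DMSO and in TMG libraries of this experiment, which do not share samples. With the GC and length trend removed all 4 passed in TMG libraries (-0.56, -0.36, -0.23 and -0.29), but in DMSO MRPS26 (-0.07) and MRPL24 (-0.09) did not. With factors from genes alone the split was 28 higher and 12 lower.

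The members' values varied with the GC content of their transcripts. Over the 69 members, Pearson's r between GC content and log2 fold change was 0.47 for OSMI-2 at 2 h, 0.50 for OSMI-2 at 6 h, -0.80 for TMG at 2 h, -0.57 for TMG at 6 h, -0.15 for DMSO time in the OSMI-2 experiment and -0.72 in the TMG experiment, a description of genes that share the same libraries. MRPL41 has the highest GC content of the members named here, 71.9%, and MRPS34, MRPS26 and MRPL55 have 64.5%, 63.4% and 62.7%. All 5 members called at 2 h of TMG lie among the 18 with a GC content of 55% or more, whose median log2 fold change was -0.16, against -0.11 for all genes of that class. At 6 h of OSMI-2, 3 of the 5 higher members lie in that class (median 0.77, against 0.41 for all its genes), while MRPS30 and MRPS35, at 37.8% and 41.1%, lie among the 23 members under 45%, whose median was -0.15. The part of GC content in the counts was not tested beyond the alternative with its trend removed.

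**Figure D4:**
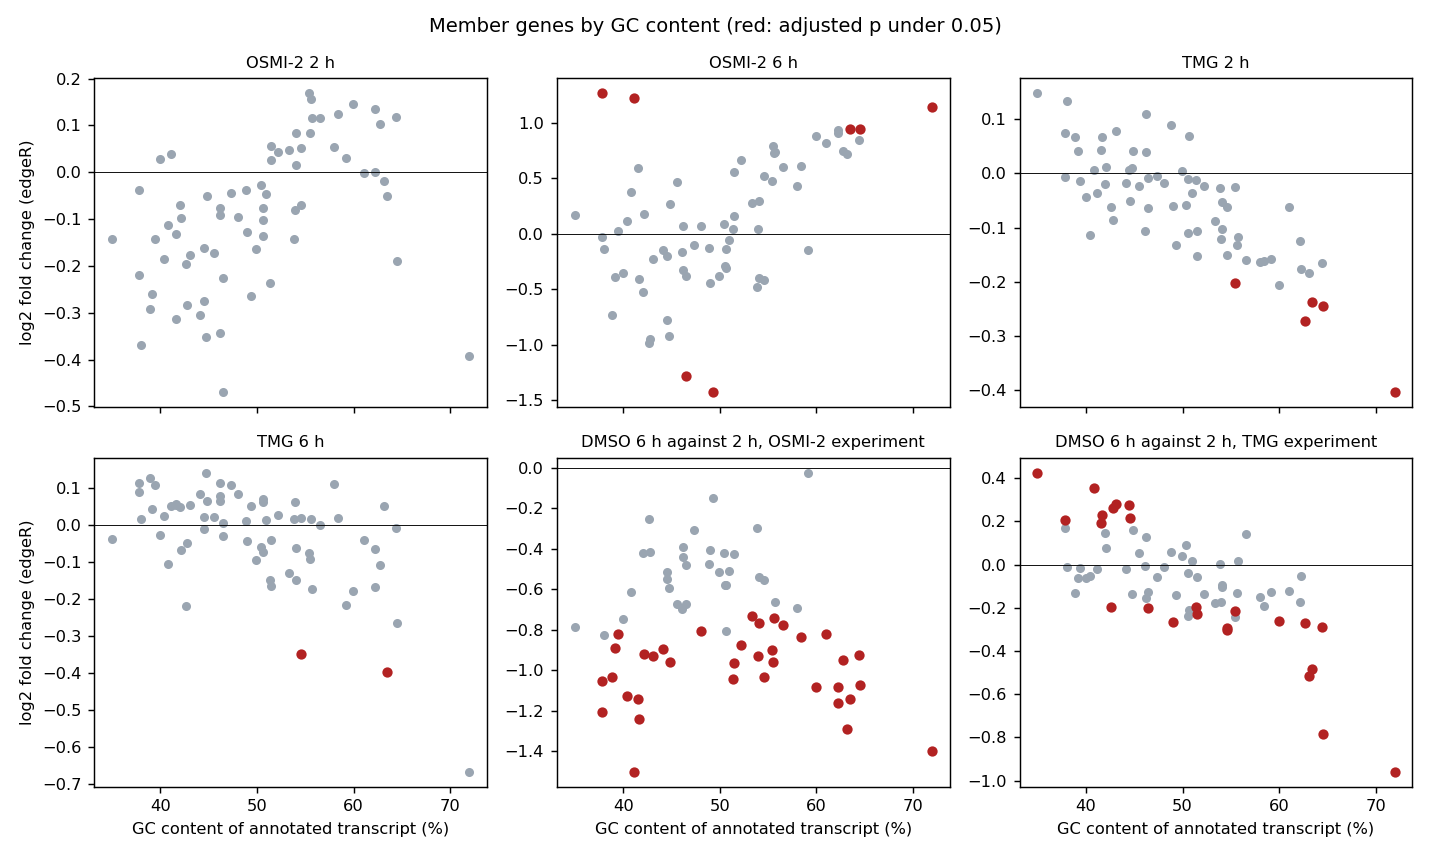
Log2 fold change (edgeR, y axis) against GC content of the annotated transcript in percent (x axis) for the 69 members in 6 comparisons, with scales that differ between panels; red points passed an adjusted p of 0.05. With TMG at 2 h the points fall with GC content (r = -0.80) and MRPL41 lies lowest at 71.9%; with OSMI-2 at 6 h MRPS30 and MRPS35 lie high at a low GC content.

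Detained introns were the subject of the study by its title, and members held few: 4 of 69 genes (5.80%) had one, beside 3150 of 13236 gene groups (23.8%). In coordinates of hg19 as the tables give them, they lie in MRPL1 (chr4:78815405-78828099, plus strand, 12695 bases), MRPL39 (chr21:26961195-26965123, minus strand, 3929 bases), MRPS15 (chr1:36923583-36926292, minus strand, 2710 bases) and MRPS27 (chr5:71522027-71522800 and the adjoining chr5:71522801-71522876, minus strand, 774 and 76 bases). MRPL1 and MRPS15 encode proteins with bacterial counterparts, and MRPL39 and MRPS27 proteins particular to mitochondria. The 2 bins of MRPS27 touch and may hold reads of 1 intron. Unlike the other bins, the longer bin of MRPS27 carries a further label beside that of detained intron. Its counts may therefore hold reads of another feature.

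All 5 introns were lower with OSMI-2 at 6 h than in DMSO, beside 86.3% of 4677 detained introns tested (86.9% in either direction). The intron of MRPL39 had 55, 34 and 33 counts in DMSO and 4 and 14 with OSMI-2, a log2 difference of -2.37 ± 0.48 (SE, edgeR adjusted p = 2.78e-06), and took 2.04%, 2.79% and 3.22% of the gene's counts in DMSO and 0.258% and 0.539% with OSMI-2. The intron of MRPS15, the most covered, had 411, 382 and 352 counts in DMSO and 160 and 237 with OSMI-2 (-1.11 ± 0.28, edgeR adjusted p = 0.000162). It took 6.39%, 7.06% and 5.22% of its gene's counts in DMSO and 2.68% and 2.97% with OSMI-2, so both libraries lie below all 3 of DMSO. The intron of MRPL1 had 43, 29 and 27 counts in DMSO and 11 and 12 with OSMI-2 (-1.66 ± 0.47, edgeR adjusted p = 0.000631). The longer bin of MRPS27 had 59, 42 and 51 counts and then 8 and 17 (-2.20 ± 0.44, edgeR adjusted p = 2.77e-06), and the shorter 12, 5 and 12 and then 1 and 3 (-2.38 ± 0.74, edgeR adjusted p = 0.00202).

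Relative to the exonic counts of the same gene, 4 of 4 introns with enough counts were lower at 6 h of OSMI-2, beside 89.2% of 4616 introns (89.4% in either direction). The log2 differences of that ratio were -2.68 for MRPL39, -1.96 for the longer bin of MRPS27, -1.53 for MRPL1 and -1.18 for MRPS15 (limma adjusted p from 4.27e-11 to 0.000114). MRPL1, MRPL39, MRPS15 and MRPS27 did not pass the test as genes in that comparison. With factors from detained introns alone, which centre these introns on themselves, 0 passed and that of MRPS15 stood at 0.38, and with the mean of at least 50 counts only that of MRPS15 could be tested. In DMSO 2 h libraries the intron of MRPL39 took 0.263%, 0.506% and 0.277% of its gene's counts and that of MRPS15 1.86%, 2.37% and 2.31%, so here too the DMSO 6 h libraries are the high group.

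With TMG at 2 h, 2 of the 5 introns were higher, beside 9.69% of 4056 introns (9.81% in either direction). The intron of MRPL39 had 10, 20 and 18 counts in DMSO and 30, 35 and 27 with TMG (0.98 ± 0.28, edgeR adjusted p = 0.0222), and that of MRPL1 had 14, 20 and 12 counts in DMSO and 21, 32 and 30 with TMG (0.90 ± 0.28, edgeR adjusted p = 0.0367). The groups do not overlap in either. Relative to its gene, that of MRPL39 was higher (0.97, limma adjusted p = 0.0242) and that of MRPL1 had a value of 0.73 (limma adjusted p = 0.0755), which is 1 of 5 beside 10.2% of 4031 introns. The introns of MRPS15 and the longer bin of MRPS27 had values of 0.06 and 0.13. The count of 2 became 0 with DESeq2, with factors from introns alone, and without DMSO library a or TMG library b, and 1 without DMSO library c, TMG library a or TMG library c.

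At 2 h of OSMI-2, 0 of 2 introns tested passed in edgeR, beside 0.129% of 3107, and 0 of 5 at 6 h of TMG, beside 0.19% of 4219. DESeq2 called 0 in both, and 0 and 1 (that of MRPL1) had an unadjusted p under 0.05. Relative to the gene the counts in limma were 0 of 2, beside 0.0643% of 3111, and 0 of 5, beside 0.191% of 4181, again with 0 and 1 at an unadjusted p under 0.05. At 6 h of TMG the intron of MRPL1 had 18, 26 and 22 counts in DMSO and 34, 33 and 36 with TMG, which do not overlap, but its value of 0.69 did not pass (edgeR adjusted p = 0.615).

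**Figure D5:**
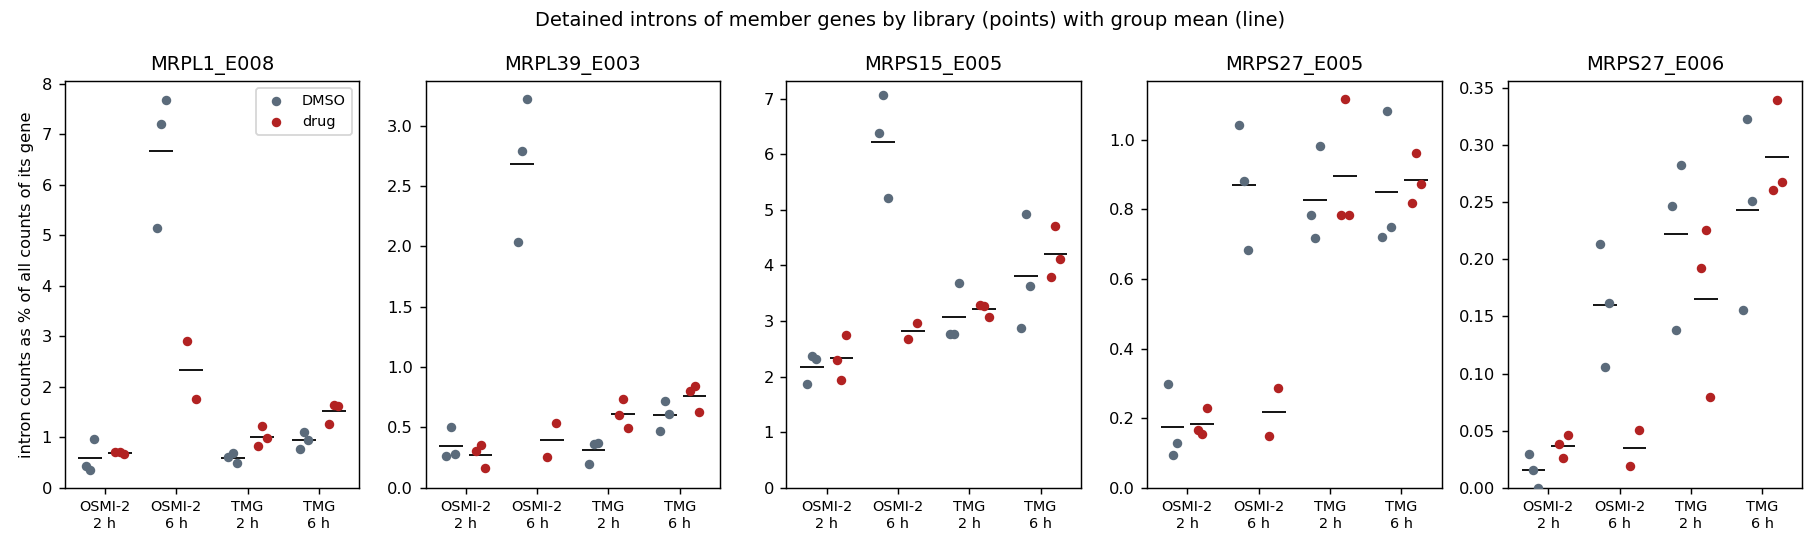
Counts of each detained intron bin of the members as a percentage of all counts of its gene (y axis, own scale per panel), by library (points) and group mean (line), for DMSO and drug in the 4 comparisons. The DMSO 6 h libraries of the OSMI-2 experiment stand out in MRPL1, MRPL39 and MRPS15, at 5.14% to 7.69%, 2.04% to 3.22% and 5.22% to 7.06%.

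The authors' deposited table of bin usage tests each bin against the rest of its gene. For the members' detained introns it called all 5 lower at 6 h of OSMI-2, beside 80.3% of 4739 detained introns in that direction (80.5% in either), with log2 folds in the authors' deposited table of -2.53 for MRPL39, -2.20 and -1.96 for the bins of MRPS27, -1.51 for MRPL1 and -1.14 for MRPS15. At 2 h of TMG it called 0 of 5, beside 3.77% of 4037, and that of MRPL39 had 0.96 (adjusted p = 0.180 in the authors' deposited table). It called 0 of 5 at 2 h of OSMI-2, beside 0.0842% of 4750, and 0 of the 2 it tested at 6 h of TMG, beside 0.541% of 1295.

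Outside detained introns, the authors' deposited table called 24 of 432 member bins at 6 h of OSMI-2 (5.56%), 9 higher and 15 lower in 16 genes, beside 4.08% of 147825 bins (1.79% higher, 2.28% lower). The bin with the lowest adjusted p, at chr10:75007263-75009076 (hg19, minus strand) in the joined group MRPS16+DNAJC9, had a log2 fold of -0.86 in the authors' deposited table (adjusted p = 1.16e-23). It is followed in the authors' deposited table by bins of MRPL34 (chr19:17412999-17416490, -0.69), MRPL23 (chr11:1976841-1977011, -1.06), MRPS2 (chr9:138393915-138394112, -1.32) and MRPS12 (chr19:39422227-39422972, -0.997), all on the plus strand. None of these 4 genes is among the 7 that passed as a gene. At 2 h of TMG the authors' deposited table called 2 of 422 member bins, beside 0.14% of 132895, one in MRPS16+DNAJC9 (-0.14) and one in MRPS27 (-0.72). It called 0 of 439 at 2 h of OSMI-2, beside 0.00893% of 156819, and 0 of 392 at 6 h of TMG, beside 0.0565% of 88493.

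Other genes of the pathway were taken as whole lists. Of 8 proteins of the mitochondrial ribosome with other symbols, GADD45GIP1 (1.07, edgeR adjusted p = 0.0222) and AURKAIP1 (1.04, edgeR adjusted p = 0.0359) were higher with OSMI-2 at 6 h and 0 lower. With factors from genes alone neither passed (0.84 and 0.81, edgeR adjusted p = 0.0932 and 0.11), and neither passed without OSMI-2 library a (1.22 and 1.17), OSMI-2 library b (0.90 and 0.91) or DMSO library c (1.22 and 1.18), nor AURKAIP1 without DMSO library b (1.22). AURKAIP1 was lower with TMG at 2 h (-0.18, edgeR adjusted p = 0.0423), a call lost without DMSO library a (-0.12), TMG library b (-0.15) or TMG library c (-0.19) and with factors from genes alone (-0.16, edgeR adjusted p = 0.0807). With the GC and length trend removed its value was -0.0008 (edgeR adjusted p = 0.993). In DMSO of the OSMI-2 experiment 3 of the 8 were lower at 6 h, GADD45GIP1 (-1.30), AURKAIP1 (-1.29) and ICT1 (-0.77), the last a release factor built into the large subunit. GADD45GIP1 and AURKAIP1 kept their call in all 10 alternatives run, and ICT1 in 4 of 9: it did not pass with factors from genes alone (-0.48), without DMSO 2 h library a (-0.53) or b (-0.62) or without DMSO 6 h library a (-0.78) or b (-0.59). In the TMG experiment PTCD3 was higher (0.24) and GADD45GIP1, MRP63 and ICT1 were lower (-0.49, -0.43 and -0.41). PTCD3 did not pass without DMSO 2 h library b (0.19) or c (0.20) or DMSO 6 h library c (0.18), nor MRP63 without DMSO 2 h library a (-0.34) or DMSO 6 h library b (-0.36) or c (-0.37). GADD45GIP1 did not pass with the GC and length trend removed (-0.15), with DESeq2 (-0.50) or without DMSO 6 h library c (-0.38).

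Of 25 assembly factors tested, 0 passed with OSMI-2 at 2 h or 6 h in edgeR (1 and 3 had an unadjusted p under 0.05, and DESeq2 called 0 and 1). MPV17L2, which takes part in assembly of the large subunit, was lower with TMG at 2 h (-0.21, edgeR adjusted p = 0.0254) and at 6 h (-0.34, edgeR adjusted p = 0.0352), and MRM1, a methyltransferase of mitochondrial ribosomal RNA, was lower at 6 h (-0.64, edgeR adjusted p = 0.0182). Neither held at every left-out library: at 6 h both lost their call without TMG library b (-0.30 and -0.66) or TMG library c (-0.37 and -0.52), MPV17L2 also without DMSO library c (-0.39) or TMG library a (-0.37) and MRM1 without DMSO library b (-0.64), and at 2 h MPV17L2 without DMSO library b (-0.21), TMG library b (-0.16) or TMG library c (-0.23). At 2 h MPV17L2 had -0.08 with the GC and length trend removed (edgeR adjusted p = 0.394) and -0.19 with factors from genes alone (edgeR adjusted p = 0.0524). In DMSO at 6 h against 2 h, 4 were lower and 0 higher in the OSMI-2 experiment (NOA1 at -1.02, which did not pass with factors from genes alone, -0.72, without DMSO 2 h library a, -0.85, or b, -0.97, or without DMSO 6 h library c, -0.89), and 7 were higher and 3 lower in the TMG experiment (MRM1 at 0.97, TFB1M at 0.55, NGRN at -0.77). Of 16 translation factors 0 passed in any drug comparison in edgeR. With OSMI-2 at 2 h and 6 h, 0 and 7 of them had an unadjusted p under 0.05 and DESeq2 called 0 and 3, and with TMG at 2 h and 6 h these counts were 1 and 1, and 1 and 0. In DMSO, MTFMT (-1.22) and C12orf65 (-0.94) were lower in the OSMI-2 experiment, and SLIRP (0.34), MTIF3 (0.29) and MRRF (0.23) were higher in the TMG experiment. MTFMT did not pass without DMSO 2 h library b (-1.03), and MRRF not without DMSO 2 h library a (0.23) or b (0.19) or DMSO 6 h library c (0.21). C12orf65 kept its call in 4 of 10 alternatives: it did not pass with factors from genes alone (-0.64), with the GC and length trend removed (-0.45), without DMSO 2 h library a (-0.79), b (-0.91) or c (-0.95) or without DMSO 6 h library c (-0.75).

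Of 14 regulators of nuclear and mitochondrial genes tested, 0 passed with OSMI-2 at 2 h or 6 h in edgeR (0 and 3 had an unadjusted p under 0.05, and DESeq2 called 0 and 2). GABPA, the DNA-binding part of the GABP complex, an ETS factor, was higher with TMG at 2 h (0.27, edgeR adjusted p = 0.00919) and at 6 h (0.43, edgeR adjusted p = 0.00549). GABPB1, its partner, was higher at 6 h (0.41, edgeR adjusted p = 0.015). In DMSO at 6 h against 2 h, GABPB1 and ESRRA were lower in the OSMI-2 experiment (-1.15 and -0.73) and in the TMG experiment (-0.39 and -0.53), where NRF1 (-0.37), E4F1 (-0.24), PPRC1 (-0.22) and YY1 (-0.19) were lower too. PPARGC1B was higher in both (0.92 and 0.43).

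Several of these calls over time rest on 1 setting or library. In the TMG experiment with the GC and length trend removed, E4F1 turned to 0.14 and passed in the opposite direction (edgeR adjusted p = 0.0151), and ESRRA (-0.16) and YY1 (-0.11) did not pass. With factors from genes alone E4F1 (-0.17), PPRC1 (-0.14) and YY1 (-0.11) did not pass. E4F1 kept its call in 5 of 10 alternatives, without it when DMSO 2 h library a (-0.22) or DMSO 6 h library b (-0.19) or c (-0.19) was left out. YY1 kept its call in 3 of 10, without it when DMSO 2 h library a (-0.18), b (-0.22) or c (-0.16) or DMSO 6 h library b (-0.17) or c (-0.21) was left out, and PPRC1 did not pass without DMSO 2 h library b (-0.21). NRF1, GABPB1 and PPARGC1B passed in all 10 alternatives of that experiment.

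In the OSMI-2 experiment PPARGC1B kept its call over time in 5 of 10 alternatives and did not pass without DMSO 2 h library a (0.75, edgeR adjusted p = 0.288), b (1.13) or c (1.06) or without DMSO 6 h library b (0.78) or c (0.97). GABPB1 kept it in 5 of 10 and did not pass with factors from genes alone (-0.84), without DMSO 2 h library a or b (-1.01 each) or without DMSO 6 h library b (-0.85) or c (-0.98). ESRRA kept it in 3 of 10 and did not pass with factors from genes alone (-0.45), with the GC and length trend removed (-0.23), without DMSO 2 h library a (-0.75), b (-0.75) or c (-0.55) or without DMSO 6 h library b (-0.85) or c (-0.79). With TMG and without 1 library, the calls of GABPA at 2 h (TMG library b, 0.26, or c, 0.21) and at 6 h (TMG library b, 0.39) and of GABPB1 (DMSO library b, 0.32, TMG library b, 0.45, or c, 0.36) did not pass.

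Cytosolic ribosomal protein genes, the counterpart outside mitochondria, were set beside the members in the comparison where most members moved. They were taken by symbol only, as groups whose symbol starts with RPL or RPS and a number. Genes of other kinds with such symbols may therefore be among them. In DMSO of the OSMI-2 experiment 61 of 89 tested were lower and 1 higher at 6 h, with a median of -0.997, beside 14% and 4.59% of all genes. The members had 36 of 69 lower there and a median of -0.79. In the TMG experiment 31 of 89 were lower and 3 higher, with a median of -0.12, beside 29.6% and 16.3% of all genes. The members had 15 lower and 9 higher there and a median of -0.06. Factors from genes alone, which lowered the members' count in the OSMI-2 experiment, were not run for the cytosolic genes. The difference between the 2 families was not tested.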

How the data were processed

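RNA from HEK293T cells was sequenced after stranded mRNA library preparation, per the labels' protocols. The deposited tables hold raw counts per exon or intron bin for 23 libraries and, per the file headers, the authors' log2 fold and adjusted p-value of a bin usage test. The submitters' processing notes name the aligner STAR and the build hg19; the counter, annotation and use of strand are not given in the sources used here, so 13 members that overlap a gene on the other strand may hold its reads. Total counts were 39465746 to 100161560 per library.

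Bins outside detained introns were summed per gene. Genes and introns were fitted in edgeR 4.0.16 (R 4.3.3) by quasi-likelihood, with TMM factors over genes and introns together, filterByExpr and Benjamini-Hochberg adjustment over all features, at 0.05. Standard errors are the log2 fold change divided by the square root of F. All 69 members passed the filter. Introns relative to their gene were tested with limma 3.58.1 on log2 ratios with 1 count added, where intron and gene had a mean of at least 10 counts. Levels per kilobase use the length of the gene's bins. Scripts were tested on simulated data. All 22 pairs of libraries of a group differed beyond sampling noise (chi-square per degree of freedom 4.33 to 304). In DMSO 6 h of the OSMI-2 experiment, library a differed from b and c by 304 and 249, and b from c by 55.1. With TMG at 6 h, library b differed from a and c by 70.1 and 63.4, and a from c by 4.86. GC content came from annotated transcripts, found for 92.4% of gene groups. Promoters were matched by symbol. Where a symbol had several, the first by chromosome and start coordinate was kept, and use of that start in these cells was not checked.

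Named genes were those past the threshold (up to 12 per direction), the 3 highest and lowest, those with a detained intron, the 5 highest and lowest levels and the MRPS18 homologues, and list genes past the threshold. The members and lists were chosen with earlier results of these data known. The interaction of time and experiment in DMSO, the drug libraries of 6 h against 2 h, the trend on the log ratio and the GC alternative for DMSO time were added after seeing the data. Alternatives were other normalization factors, DESeq2 1.42.0, no filter, 1 fit of all libraries, removal of GC and length trends, and leaving out each library.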

Additional observations from a re-analysis of the deposited data

Results flagged for a closer look

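The change over 6 h in DMSO differed between the TMG and OSMI-2 experiments by a direct test of the difference (edgeR interaction of time and experiment): 28 of 69 members passed, and in each the OSMI-2 experiment had the lower value, beside 9.61% of all genes in that direction (13.2% in either). The 3 members with the highest differences were MRPS35 (1.64 on the log2 scale), MRPL13 (1.61) and MRPS30 (1.53). The count of 28 became 6 to 60 when 1 library was left out. The call of MRPL13 was lost with factors from genes alone (1.41) and without DMSO 2 h library a of the OSMI-2 experiment (1.38). These results were singled out because the same contrast gave different effects in 2 separate experiments. The GC dependence of the libraries and the share of counts in detained introns differ between the same experiments, and their part was not tested.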

How the results depend on the processing

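No paired analysis was possible because the columns of the tables carry letters and not the numbers given in the titles, and nothing states what libraries of 1 letter share. A block by letter was not run. Members called with OSMI-2 at 6 h were 7 (beside 617 of all genes), and 3 with TMM over genes only (beside 514). They were 34 with all libraries in 1 fit (beside 5981), 30 with GC and length trends removed (beside 3403) and 0 to 31 when leaving out 1 library. With TMG at 2 h they were 5, and 0 in 1 fit, 0 with trends removed and 1 to 9 when leaving out 1 library. With TMG at 6 h they were 2, and 0 in 1 fit, 12 with trends removed and 0 to 3 when leaving out 1 library. Over time in DMSO they were 36 in the OSMI-2 experiment, 8 with TMM over genes only and 6 to 46 when leaving out 1 library, and 24 in the TMG experiment, with 14 to 37. The difference between the experiments gave 28, and 11 with TMM over genes only, 50 with DESeq2 and 6 to 60 when leaving out 1 library. The OSMI-2 interaction gave 0, and 2 with DESeq2 and 0 to 8 when leaving out 1 library. OSMI-2 libraries over time gave 0, and 6 with TMM over genes only, 34 with DESeq2, 14 with trends removed and 0 to 26 when leaving out 1 library. TMG libraries over time gave 33, and 50 with trends removed and 28 to 35 when leaving out 1 library. Detained introns at 6 h of OSMI-2 were 5 called, 0 with TMM over introns only and 4 to 5 when leaving out 1 library, and relative to the gene 4, with 1 where means of at least 50 counts were required. At 2 h of TMG they were 2, and 0 with TMM over introns only or DESeq2 and 0 to 2 when leaving out 1 library, and relative to the gene 1, with 0 at means of at least 50 counts, 0 with the trend on the log ratio and 0 to 1 when leaving out 1 library. The other counts stayed within 1.5 times (140 of 200 alternatives), and the cause was not tested. The counts of all genes called moved too: at 6 h of OSMI-2 from 617 to 5981 in 1 fit and 0 without either OSMI-2 library.

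Values of the opposite sign came up as follows. Over time in DMSO of the OSMI-2 experiment they were MRPS33 (0.031), MRPS23 (0.14) and MRPL34 (0.26) with TMM over genes only, MRPS23 (0.28) and MRPL34 (0.12) with trends removed, and, when leaving out 1 library, MRPS23 (-0.37 to 0.092) and MRPL34 (-0.12 to 0.11). In the TMG experiment with trends removed they were MRPL4 (0.10), MRPL55 (0.10), MRPS12 (0.025), MRPL52 (0.0010) and E4F1 (0.14). In OSMI-2 libraries over time they were MRPS26 (0.10) and GADD45GIP1 (0.19) with trends removed, and, when leaving out 1 library, GADD45GIP1 (-0.17 to 0.048), MRPL41 (-0.082 to 0.33), MRPS34 (-0.069 to 0.16) and MRPS30 (-0.0081 to 0.24). Among introns they were, with TMM over introns only, MRPS15_E005 at 2 h (0.056) and 6 h (0.38) of OSMI-2 and 2 h of TMG (-0.22) and MRPS27_E005 at 2 h (-0.16) and 6 h (-0.055) of TMG. At 2 h of OSMI-2, MRPS15_E005 was 0.017 with TMM over genes only and 0.0094 with DESeq2, and MRPS27_E005 relative to its gene -0.030 with 5 counts added. When leaving out 1 library, intron values at 2 h of OSMI-2 spanned 0 for MRPS15_E005 (-0.070 to 0.088, relative -0.042 to 0.21) and MRPS27_E005 (-0.68 to 0.60, relative -0.17 to 0.58), at 2 h of TMG for MRPS15_E005 (-0.059 to 0.15) and MRPS27_E005 (-0.060 to 0.25, relative -0.065 to 0.23), and at 6 h of TMG for MRPS27_E005 (-0.025 to 0.26, relative -0.031 to 0.26) and MRPS15_E005 relative to its gene (-0.014 to 0.39).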
